A study of Mus musculus with 22 samples.

Results

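The comparison described here is the difference between 2 antibiotic effects in the mouse colon: the change with antibiotics in mice that lack the polymeric immunoglobulin receptor, minus the change with antibiotics in wild-type mice. All 22 arrays of the series entered it, through the group that each array's title gives, and 19993 probes standing for 10705 named genes were tested. The tissue was colonic epithelium released by shaking the opened colon for 25 min in 20 mM EDTA, and no sorting step is named. All mice were BALB/c, labelled male and 6 to 10 weeks old.

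The 4 groups were KO_antibiotic (pIgR-KO mice given antibiotics for 17 days, 6 arrays), KO_untreated (pIgR-KO mice without antibiotics, 6 arrays), WT_antibiotic (wild-type mice given antibiotics for 17 days, 5 arrays) and WT_untreated (wild-type mice without antibiotics, 5 arrays). The labels do not name the antibiotics or describe the knockout allele. They also leave unsaid whether each array stands for a separate mouse, so the p-values cover only the spread among these arrays, which may be technical. The labels of KO_untreated 1 and KO_untreated 2 begin with the same number. A number is also shared across genotypes, by WT_untreated 3 and KO_untreated 6, so a shared number alone does not identify 1 mouse. In that label 5 of the 6 KO_untreated arrays, unlike all other arrays, carry a suffix. What these numbers and the suffix mark is not stated.

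The polymeric immunoglobulin receptor sits on the basolateral side of gut epithelial cells, binds dimeric IgA and pentameric IgM made by plasma cells below, and carries them into the lumen as secretory antibodies. Without it these antibodies do not reach the gut surface by this route, and bacteria meet the epithelium with less antibody bound. Antibiotics reduce or alter the bacteria. The difference of the 2 effects asks whether the epithelium answers that reduction in another way when the receptor is missing.

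Levels are normalised log2 bead signals, on which 1 unit is a doubling, and levels are compared between groups for the same probe only. Between 15975 and 18388 probes were detected per array. Krt8, an epithelial keratin, lay between 14.20 and 14.61 on all 22 arrays, and Vil1, Cdx2, Krt18, Krt20, Epcam and Cdh1 were detected on all 22 arrays by their brightest probes. Ptprc, the pan-leukocyte marker CD45, was detected on 6 of 22 arrays by its tested probe, at 4.25 to 5.11. Pigr lay between 8.74 and 10.25 in KO_antibiotic and between 8.93 and 10.73 in KO_untreated, against 11.32 to 12.01 in WT_antibiotic and 11.61 to 12.50 in WT_untreated, so that every KO array was below every WT array. The labels do not say whether the probe lies in the deleted part. WT_untreated 3 and WT_untreated 4 stood apart from the other WT_untreated arrays in several of the genes below. Values without both are given where they change a call. That fit was chosen after seeing the data, by levels in the genes it is applied to. Calls gained by it below are therefore no separate support. The labels of WT_untreated 3 and 4 carry consecutive numbers, as do those of some other arrays. The levels of WT_untreated 3 correlated at 0.967 to 0.981 with the other WT_untreated arrays. With the KO_untreated arrays they correlated at 0.934 to 0.980, among them 0.972 with KO_untreated 6.

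Few probes showed a difference of antibiotic effects that passed the test. Of 19993 probes, 2 had an adjusted p under 0.05 (0.01% of those tested), both with a negative difference, meaning that the effect in KO lay below that in WT. Both were detected on 2 of 5 WT_untreated arrays and on 0 WT_antibiotic arrays, so a fall in WT had little room to be measured. Without the KO_untreated arrays neither would have met the filter of 5 detected arrays. When each gene was represented by its brightest tested probe, 0 of 10705 genes passed in limma, although 960 genes (8.97%) had an unadjusted p under 0.05, 415 with a positive (3.88%) and 545 with a negative difference (5.09%). Whatever their p, 5739 of the 10705 genes had a negative and 4966 a positive difference. The sign counts of the gene lists below are read beside these, and the genes of a list are not independent. The alternatives gave between 0 and 61 probes. The highest count came without WT_untreated 3 and WT_untreated 4, with 54 negative and 7 positive differences. Leaving out only WT_untreated 3 gave 22 probes, only KO_untreated 3 gave 13, only KO_untreated 5 gave 9, only KO_untreated 6 gave 4, and leaving out WT_untreated 1, 2 or 5 gave 1 probe each.

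The precision of the difference sets how this is read. Its median standard error was 0.25 log2 units and its median 95% interval reached 0.52 units to either side, wider than for the antibiotic effect in KO (0.35) and in WT (0.38). A gene that missed the threshold was therefore not shown to respond alike in the 2 genotypes. Over all probes the difference had a median of -0.03 and ran from -0.53 at the 5th to 0.63 at the 95th percentile, and 295 probes exceeded 1 unit in either direction.

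The 2 component effects were large beside it. With antibiotics 2478 probes changed in KO (12.4% of those tested, with 1066 or 5.33% higher and 1412 or 7.06% lower), and 950 changed in WT (4.75%, with 497 or 2.49% higher and 453 or 2.27% lower). Counted as genes, 1580 changed in KO (14.8%, with 6.16% higher and 8.6% lower) and 596 in WT (5.57%, with 2.66% higher and 2.91% lower), the shares against which the gene lists below are read. Median scaling over all probes in place of quantile normalisation gave 377 higher and 906 lower in KO, and 76 higher and 161 lower in WT. Of the probes called in either genotype, 622 were called in both, which is 25.1% of the KO calls and 65.5% of the WT calls, and 621 of these 622 moved the same way. A further 1856 probes were called in KO and not in WT, of which 2 passed the test of the difference itself and 559 had an unadjusted p under 0.05 for it, against 8.78% of all probes. Another 328 were called in WT and not in KO, and 0 of these passed, while 105 had an unadjusted p under 0.05. Among the KO calls 92.1% had the same sign in WT, and among the WT calls 96.9% had the same sign in KO. The KO calls were chosen by an effect that is part of the difference, so a raised share of small p-values among them is no separate result.

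**Figure D1:**
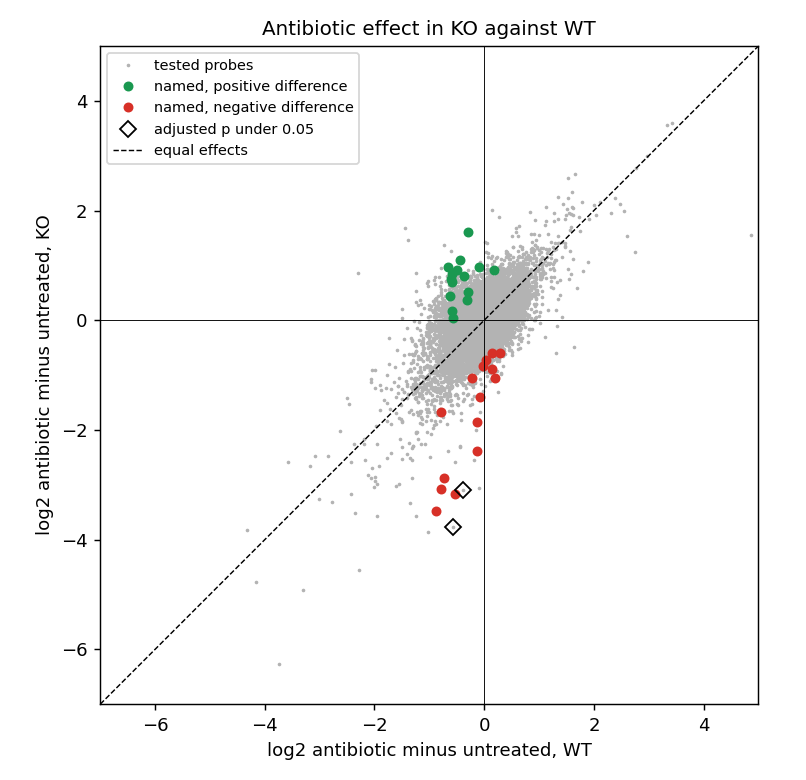
Each point is 1 of 19993 tested probes, with its log2 antibiotic effect in WT on the horizontal axis and in KO on the vertical axis. The dashed line marks equal effects, red and green points are the 15 named genes with a negative and the 15 with a positive difference, and diamonds mark the 2 probes that passed the test. Both diamonds lie far below the line near a WT effect of 0, at KO effects of -3.77 and -3.10.

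Over the 19993 probes the effects in KO and WT had a Pearson r of 0.59 and a Spearman rho of 0.41. This correlation is across probes, which are not independent replicates. The 2 effects share no array, but all arrays were normalised together.

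The smallest p-values among named genes were those of alpha-defensins, small antimicrobial peptides that Paneth cells of the mouse small intestine secrete and that lie in a gene cluster on chromosome 8. Defa3, Defa20 and Defa23 were detected on all 6 KO_untreated arrays and on no KO_antibiotic and no WT_antibiotic array. In WT_untreated the Defa3 and Defa23 probes were detected on 2 of 5 arrays, WT_untreated 3 and 4, and the brightest Defa20 probe on none. All 3 genes therefore met the filter of 5 detected arrays only through KO_untreated, and their WT effects were bounded by background. The promoters of Defa20 and Defa23 are shown because both genes moved together here. They are RefSeq windows of GRCm38.p6, from 250 bases before to 50 after the start, at chr8:21509008-21509307 on the plus strand for Defa20 and chr8:21054790-21055089 on the plus strand for Defa23. Capitals mark TATAAA and ATCAAAG, both searched on both strands, and the 2 motifs do not overlap.
Defa20: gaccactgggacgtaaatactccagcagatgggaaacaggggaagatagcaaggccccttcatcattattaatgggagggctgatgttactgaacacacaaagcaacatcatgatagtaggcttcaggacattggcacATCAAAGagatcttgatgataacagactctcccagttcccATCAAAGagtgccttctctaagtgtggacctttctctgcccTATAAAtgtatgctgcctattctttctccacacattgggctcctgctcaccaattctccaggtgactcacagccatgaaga
Defa23: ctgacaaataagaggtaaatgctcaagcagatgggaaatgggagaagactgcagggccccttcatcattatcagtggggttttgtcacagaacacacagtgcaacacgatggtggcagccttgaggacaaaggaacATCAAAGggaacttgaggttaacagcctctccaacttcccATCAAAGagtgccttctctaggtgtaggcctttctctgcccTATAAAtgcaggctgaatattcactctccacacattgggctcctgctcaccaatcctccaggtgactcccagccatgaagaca
Each window holds 1 TATAAA and 2 copies of ATCAAAG at nearly the same places, and the windows were identical at 246 of 296 aligned bases (83.1%). TATAAA occurs in 13.6% and ATCAAAG, the core that TCF factors of the Wnt pathway bind, in 3.73% of the 32851 promoter windows of this length. These matches describe the letters and are not measured binding sites.

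The called Defa3 probe lay between 4.25 and 4.39 in KO_antibiotic (median 4.29) and between 6.23 and 8.55 in KO_untreated (median 7.72). In WT_antibiotic it stood at 4.27, 4.21, 4.24, 4.28 and 4.22, and in WT_untreated at 4.34, 4.25, 5.35, 4.82 and 4.39. All 6 KO_untreated arrays were above all 16 others, and WT_untreated 3 and 4 were the highest of the rest. Its difference of effects was -2.71 (SE 0.43, adjusted p = 0.0148), from an effect of -3.10 in KO (SE 0.29, adjusted p = 3.78e-07) and of -0.39 in WT (SE 0.31, adjusted p = 0.536). Since the probe was not above background on any KO_antibiotic array, the fall in KO was at least 6.25-fold, computed against the lowest signal among detected probes on each of those arrays. In WT it was detected on 2 of 5 untreated arrays and on 0 antibiotic arrays, so the WT effect was bounded by background. The log2 difference itself therefore rests partly on undetected values. The call held in 28 of 36 alternatives. It was lost without WT_untreated 1, 2 or 5 (adjusted p = 0.0531, 0.054 and 0.0523), without KO_antibiotic 3 and 4 (0.0713), with median scaling over all probes (0.104) and without a filter (0.162). It was also lost without background correction (-1.82, adjusted p = 0.116) and on the authors' values (-1.82, adjusted p = 0.113).

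The second called probe, ILMN_1254739, has no gene name in the annotation used. It lay between 4.19 and 4.46 in KO_antibiotic (median 4.28) and between 6.79 and 9.35 in KO_untreated (median 8.31). In WT_antibiotic it stood at 4.21, 4.27, 4.21, 4.27 and 4.24, and in WT_untreated at 4.28, 4.24, 5.74, 5.46 and 4.29. The order of the 6 KO_untreated arrays was that of the called Defa3 probe, with KO_untreated 6 highest and KO_untreated 3 and 5 lowest in both. Its difference was -3.21 (SE 0.48, adjusted p = 0.0129), and its fall in KO was at least 9.89-fold (adjusted p = 1.04e-07). The call held in 31 of 36 alternatives and was lost without background correction, with median scaling over all probes, on the authors' values, without a filter and without KO_antibiotic 3 and 4, with adjusted p from 0.0648 to 0.162.

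The brightest Defa3 probe, Defa20 and Defa23 ran the same way without passing the threshold. Defa3 by this probe lay between 4.27 and 4.59 in KO_antibiotic and between 6.25 and 8.75 in KO_untreated, against 4.32, 4.73, 4.30, 4.37 and 4.37 in WT_antibiotic and 4.34, 4.40, 5.95, 5.66 and 4.38 in WT_untreated. Its difference was -2.63 (SE 0.50, adjusted p = 0.0689), and the fall in KO was at least 6.98-fold. Defa20 lay between 4.19 and 4.37 in KO_antibiotic and between 5.15 and 7.65 in KO_untreated, against 4.19 to 4.29 in WT_antibiotic and 4.27 to 4.63 in WT_untreated. Its difference was -2.25 (SE 0.42, adjusted p = 0.0689) and its fall in KO at least 3.74-fold. Defa23 had a difference of -1.71 (SE 0.39, adjusted p = 0.161) and a fall in KO of at least 2.83-fold. For Defa3 and Defa20 every KO_untreated array was above all others, while for Defa23 KO_untreated 3, at 5.10, lay below WT_untreated 3, at 5.12. Without WT_untreated 3 and 4 the difference was -3.20 for Defa3 by this probe (adjusted p = 0.00163), -2.31 for Defa20 and -2.00 for Defa23 (adjusted p = 0.0384 each). Alpha-defensin genes are near-identical copies, so the probes may share transcripts and the 3 genes are not independent measurements.

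**Figure D2:**
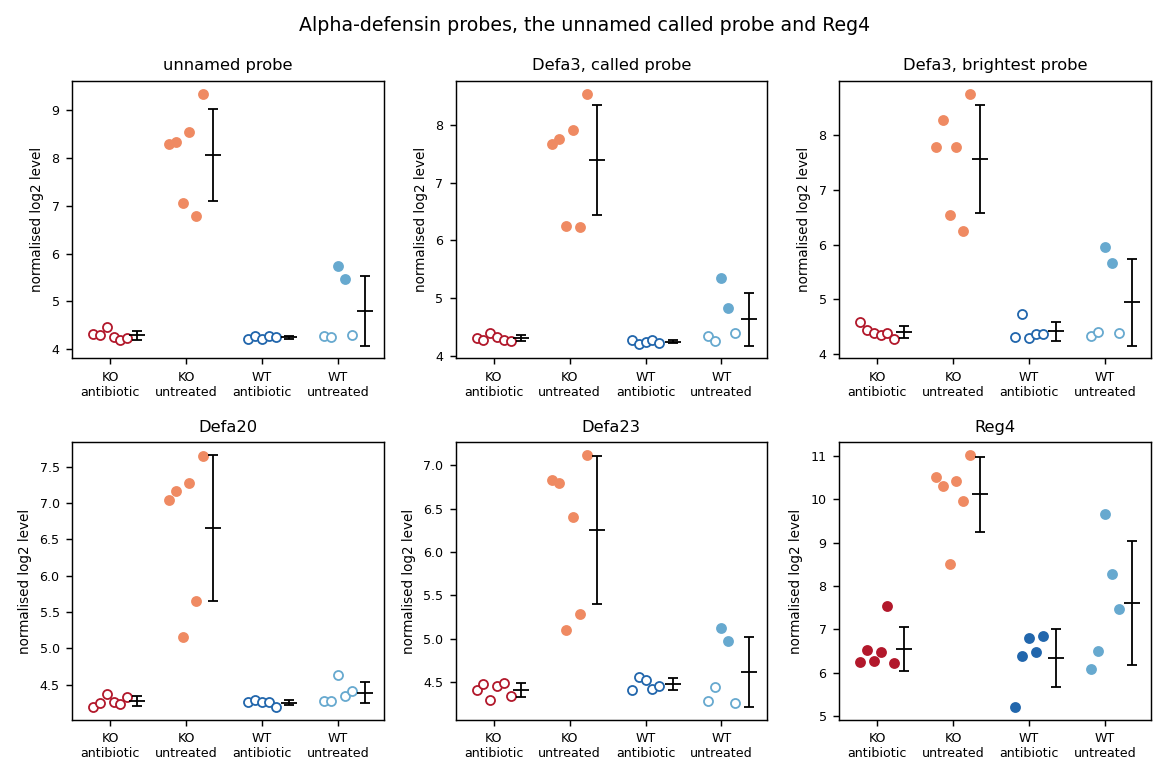
Normalised log2 level of 5 defensin or unnamed probes and of Reg4, by group. Each circle is 1 array, filled where the probe was detected, and the black bar is the mean with its SD (n = 6 in KO groups, 5 in WT groups). In the Defa3, Defa20 and unnamed panels the 6 KO_untreated arrays lie above all others, for Defa23 1 of them lies just below WT_untreated 3, and in these 5 panels filled circles in WT_untreated are only replicates 3 and 4.

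Few other antimicrobial genes had a small p for the difference. Of the 22 tested members of the list of Paneth cell defensins and antimicrobial proteins, the 3 defensins alone had an unadjusted p under 0.05 for the difference, and the list's median was -0.21, against -0.03 over all genes. Lyz1, the Paneth cell lysozyme, had a difference of -0.05 (SE 0.60) and Defa21 one of -0.19 (SE 0.17). Defa21 lay between 4.34 and 4.92 on all 22 arrays, near background, so its small difference does not show an equal response. Pla2g2a, a bactericidal phospholipase, and the lectins Reg3b and Reg3g fell in both genotypes. Their antibiotic effects were -4.77 in KO and -4.16 in WT for Pla2g2a, whose difference was -0.61 (SE 0.71) and became -1.82 (adjusted p = 0.0489) without WT_untreated 3 and 4. They were -2.54 in KO and -2.18 in WT for Reg3b, and -2.47 in KO and -3.09 in WT for Reg3g. Ang4, an angiogenin secreted by Paneth and goblet cells, had a standard error of 1.65 for the difference, so that this comparison says little about it.

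Secretory lineage genes followed in part. Reg4, a lectin of goblet and enteroendocrine cells, lay between 6.23 and 7.54 in KO_antibiotic (median 6.37) and between 8.50 and 11.02 in KO_untreated (median 10.37), against 5.21, 6.40, 6.80, 6.48 and 6.86 in WT_antibiotic and 6.09, 6.51, 9.65, 8.29 and 7.48 in WT_untreated. In KO it fell by 3.57 log2 units (adjusted p = 1.51e-05), the effect in WT was -1.25 (adjusted p = 0.169), and the difference was -2.32 (SE 0.69, adjusted p = 0.422). Without WT_untreated 3 and 4, in which Reg4 was high, the difference was -3.23 (adjusted p = 0.0118). Spink4, a goblet cell peptide, fell in both genotypes, with an effect of -2.53 in KO (adjusted p = 1.73e-06) and a smaller one in WT (adjusted p = 0.00383), and its difference was -1.02 (SE 0.39, adjusted p = 0.515). Creb3l1, a transcription factor of secretory cells, had a difference of -0.64 (SE 0.29). Of 17 tested goblet cell genes 10 fell in KO and 7 in WT, and the median difference was only -0.08. Muc2, the main mucin of the colon, differed by -0.08 (SE 0.19).

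Mucins and the enzymes of mucin-type glycosylation, which build and cap their sugar chains, leaned to the negative side. Of 26 tested, 20 had a negative difference, 7 had an unadjusted p under 0.05, all of them negative, and 0 passed the adjusted threshold. The share of 26.9% with an unadjusted p under 0.05 stood beside 8.97% of all genes, and the median was -0.24. With antibiotics 12 of them fell in KO and 3 in WT. St3gal4, a sialyltransferase, was detected on no KO_antibiotic and on all 6 KO_untreated arrays, and it fell in KO by at least 2.56-fold (adjusted p = 1.1e-05). In WT it was detected on 2 untreated and 0 antibiotic arrays, so its WT effect was bounded by background. It met the filter only through KO_untreated, where it was high. Its difference was -1.15 (SE 0.32, adjusted p = 0.379), and -1.45 without WT_untreated 3 and 4 (adjusted p = 0.0489). Muc1, a membrane mucin, differed by -0.84 and by -0.47 without those arrays. Chst4, which sulfates such chains, lay between 7.94 and 9.30 in KO_antibiotic and between 9.51 and 10.41 in KO_untreated, without overlap, against 7.48, 8.74, 8.79, 8.40 and 8.46 in WT_antibiotic and 8.98, 8.83, 9.23, 8.81 and 8.57 in WT_untreated, where 2 WT_antibiotic arrays reached into the WT_untreated range. Its difference was -0.84 (SE 0.34, adjusted p = 0.516).

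In cholesterol synthesis nearly all genes had a negative difference, though none of the 20 passed. Its enzymes turn acetyl-CoA through mevalonate and squalene into cholesterol, under the transcription factor SREBP2, which Srebf2 encodes. Of the 20 tested genes 19 had a negative difference, 9 of them with an unadjusted p under 0.05 (45%, against 8.97% of all genes), and 0 passed the adjusted threshold. The median difference was -0.51, made up of a median effect of -0.33 in KO and of 0.20 in WT. Only 4 of the 20 changed with antibiotics in KO (Fdps, Mvd, Srebf2 and Mvk, all lower) and 0 in WT. Over the 37 alternatives the median difference of the list stayed between -0.59 and -0.39.

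Fdps, farnesyl diphosphate synthase, lay between 10.27 and 10.79 in KO_antibiotic (median 10.47) and between 11.18 and 11.76 in KO_untreated (median 11.33), against 10.18, 10.53, 10.61, 10.62 and 10.66 in WT_antibiotic and 10.32, 9.67, 10.72, 10.59 and 10.53 in WT_untreated. The KO_untreated arrays were above all others, and the other 3 groups overlapped. It fell by 0.89 units in KO (adjusted p = 0.000485) and its effect in WT was 0.15 (adjusted p = 0.682), a difference of -1.04 (SE 0.24, adjusted p = 0.161), or -1.23 without WT_untreated 3 and 4 (adjusted p = 0.0346). Mvd, mevalonate diphosphate decarboxylase, lay between 7.35 and 8.14 in KO_antibiotic and between 8.45 and 9.20 in KO_untreated, against 7.11, 8.79, 8.45, 7.95 and 7.94 in WT_antibiotic and 7.27 to 8.28 in WT_untreated. Here WT_antibiotic 2 and 3 reached the KO_untreated range. The difference was -1.25 (SE 0.32, adjusted p = 0.335).

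Srebf2 lay between 8.36 and 8.70 in KO_antibiotic and between 8.93 and 9.65 in KO_untreated, against 8.07 to 8.80 in WT_antibiotic and 7.83 to 8.63 in WT_untreated. It fell by 0.74 units in KO (adjusted p = 0.00164) and had a difference of -0.85 (SE 0.23, adjusted p = 0.341). Dhcr7, the last enzyme of the pathway, showed a difference of -0.61 (SE 0.20) made up of -0.26 in KO and 0.34 in WT, neither of which passed. The other members with an unadjusted p under 0.05 were Cyp51, Pmvk, Mvk, Sqle and Lss, with differences from -0.82 to -0.65. In fatty acid synthesis, which the related factor SREBP1 drives, 2 of 21 genes (9.52%) had an unadjusted p under 0.05, and the median difference was -0.15.

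The promoters of Mvd and Srebf2 are shown as examples of this gene group, again RefSeq windows of GRCm38.p6, at chr8:122443373-122443672 on the minus strand for Mvd and chr15:82147019-82147318 on the plus strand for Srebf2. Capitals mark CCAAT, the core of the element bound by NF-Y, or its reverse complement.
Mvd: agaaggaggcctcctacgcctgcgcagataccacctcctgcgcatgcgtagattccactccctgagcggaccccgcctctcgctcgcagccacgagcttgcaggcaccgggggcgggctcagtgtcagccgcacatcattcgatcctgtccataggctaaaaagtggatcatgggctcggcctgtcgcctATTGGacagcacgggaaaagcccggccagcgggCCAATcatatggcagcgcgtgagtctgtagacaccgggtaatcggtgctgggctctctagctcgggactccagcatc
Srebf2: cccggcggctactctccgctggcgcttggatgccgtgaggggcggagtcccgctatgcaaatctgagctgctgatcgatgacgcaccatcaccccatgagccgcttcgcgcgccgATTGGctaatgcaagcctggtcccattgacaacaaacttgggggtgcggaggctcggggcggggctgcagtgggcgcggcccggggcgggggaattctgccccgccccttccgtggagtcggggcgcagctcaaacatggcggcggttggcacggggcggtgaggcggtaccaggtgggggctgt
A CCAAT on either strand was found in 16 of the 17 tested cholesterol synthesis genes with a window in the table, and in 37.4% of all windows. The sterol element written as TCACNCCAC was found in 0 of these 17 and in 1.24% of all windows, which says only that these letters are not in these windows.

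**Figure D3:**
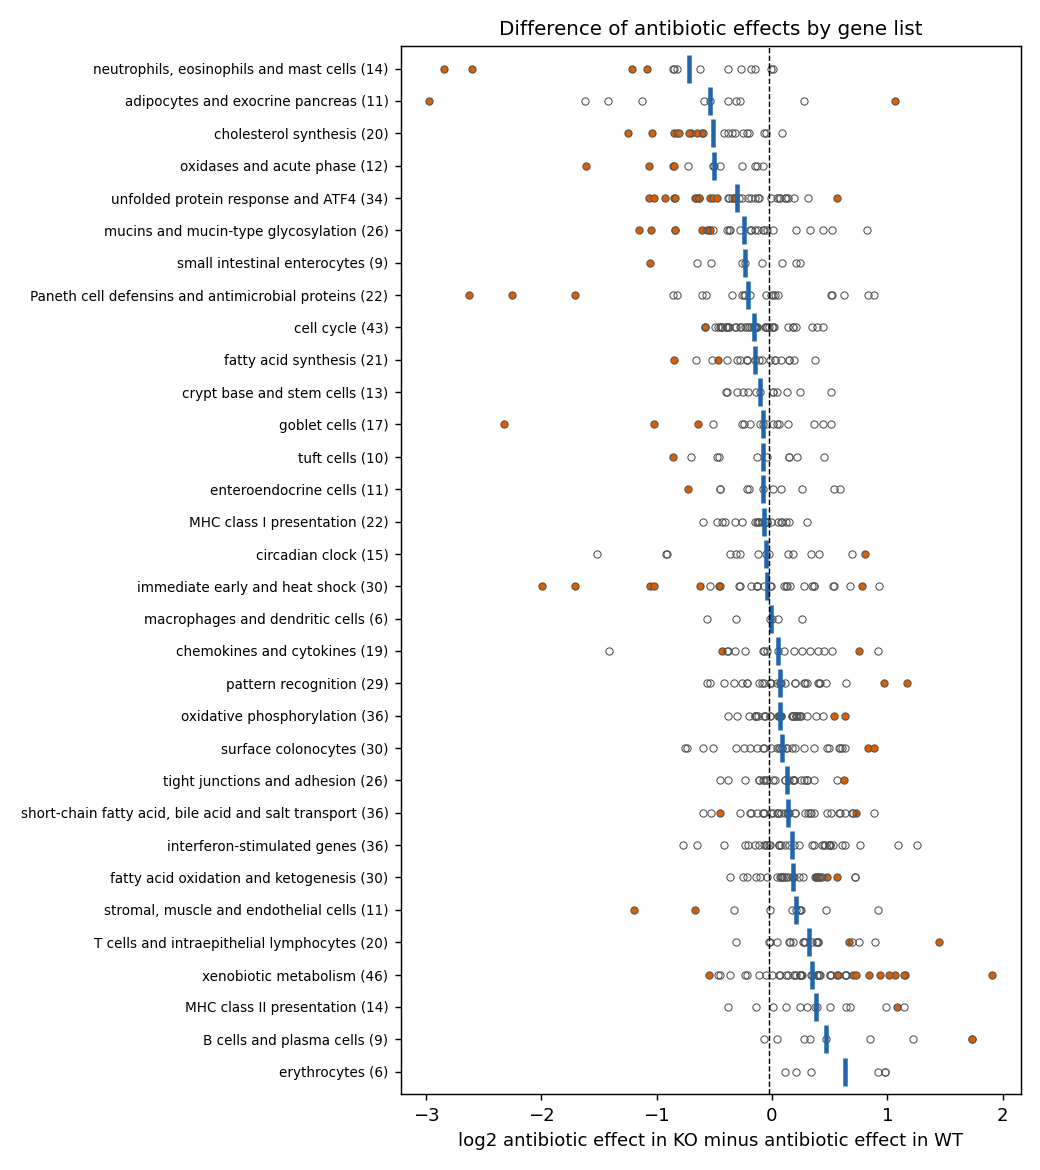
Difference of antibiotic effects (KO minus WT, log2) for the tested members of 32 gene lists, with the number tested in brackets. Each circle is 1 gene, orange where the unadjusted p was under 0.05, the blue bar is the list's median and the dashed line the median of all 10705 genes, -0.03. Mast cell and granulocyte, cholesterol synthesis and oxidase lists have medians of -0.72 to -0.50, and xenobiotic metabolism has one of 0.35.

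Genes of the unfolded protein response, which enlarges the folding capacity of the endoplasmic reticulum, and of its ATF4 branch were lower with antibiotics in more cases in KO than in WT. Of 34 tested, 17 fell in KO and 6 in WT, and 0 rose in either. For the difference 13 had an unadjusted p under 0.05 (38.2%, against 8.97%), 12 negative and 1 positive, 0 passed the adjusted threshold, and the median was -0.30. Hyou1, a chaperone of the endoplasmic reticulum, lay between 5.15 and 6.07 in KO_antibiotic (median 5.52) and between 6.50 and 7.65 in KO_untreated (median 7.19), against 5.13, 5.77, 5.85, 5.43 and 5.67 in WT_antibiotic and 5.90, 5.79, 6.40, 6.37 and 5.79 in WT_untreated. It fell by 1.55 units in KO (adjusted p = 9.19e-06), the effect in WT was -0.48 (adjusted p = 0.204), and the difference was -1.07 (SE 0.28, adjusted p = 0.341). Creld2, another protein of that compartment, fell by 1.83 units in KO and by 0.90 units in WT, a difference of -0.93 (SE 0.30), or -1.27 without WT_untreated 3 and 4 (adjusted p = 0.0441). Sdf2l1 and Syvn1, the ligase of the degradation pathway there, had differences of -1.02 (SE 0.33) and -0.54 (SE 0.19).

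Oxidase and acute-phase genes all leaned the same way. The epithelial oxidase Duox2 makes hydrogen peroxide at the cell surface and Duoxa2 is its maturation factor. All 12 tested members of the list had a negative difference, 4 with an unadjusted p under 0.05 (33.3%, against 8.97% of all genes), 0 passed, and the median was -0.50. Among these 4, Lbp met the filter only through KO_untreated, with 2 WT_untreated and no antibiotic arrays detecting it. Duoxa2 lay between 5.43 and 5.94 in KO_antibiotic (median 5.71) and between 9.02 and 9.69 in KO_untreated (median 9.20), against 5.16, 5.73, 5.91, 5.06 and 5.72 in WT_antibiotic and 7.10, 6.02, 8.79, 8.12 and 7.34 in WT_untreated. In both genotypes the 2 treatments did not overlap, and the untreated groups did not overlap either. It fell by 3.56 units in KO (adjusted p = 5.96e-08) and by 1.96 units in WT (adjusted p = 0.00085), and the difference was -1.61 (SE 0.43, adjusted p = 0.341). Without WT_untreated 3 and 4 it was -2.26 (adjusted p = 0.00113). Duox2 fell by 1.82 units in KO and by 0.97 units in WT, with a difference of -0.85 (SE 0.35), or -1.38 without those arrays (adjusted p = 0.0349). Saa1, an acute-phase protein, rose in both, by 1.11 units in KO and 1.62 units in WT, and differed by -0.51 (SE 0.31).

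Cell cycle genes fell in many cases in both genotypes. Of 43 tested, 36 fell in KO and 21 fell in WT, the median effects were -0.93 in KO and -0.77 in WT, 33 differences were negative, and the median difference was -0.16. With KO_untreated reduced to its 1 array without a suffix that median was -0.78, with up to 17 members at an unadjusted p under 0.05 over the alternatives. Cdc45, a replication helicase factor, was the only member with an unadjusted p under 0.05, at -0.58 (SE 0.25). Interferon-stimulated genes, with 36 tested, had 0 members with such a p, a median effect of -0.39 in KO and -0.58 in WT, and a median difference of 0.17. Without WT_untreated 3 and 4 that median was -0.38.

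Among the 15 genes named for the smallest p on the negative side, the group with the highest mean was KO_untreated in all 15. These genes were chosen by the difference itself, so their pattern is a description. All KO_untreated arrays except KO_untreated 1 carry the label suffix that no other array has. Whatever the suffix marks can therefore hardly be told apart from genotype and treatment in this pattern. The same limit holds for the positive direction below. In all 15 the KO_antibiotic and KO_untreated arrays did not overlap, as in 7.37% of all genes, and in 0 of 15 did the WT_antibiotic and WT_untreated arrays separate, as in 6.75% of all genes. In 11 of 15 every KO_untreated array was above all other arrays, as in 1.33% of all genes. In 10 of 15 the WT_untreated arrays 3 and 4 were the 2 highest of their group.

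Slc29a4, a membrane transporter of monoamines and adenosine, lay between 4.57 and 5.49 in KO_antibiotic and between 6.39 and 8.43 in KO_untreated, against 4.43, 4.78, 4.83, 4.33 and 4.59 in WT_antibiotic and 4.64, 4.89, 6.37, 6.27 and 4.47 in WT_untreated. Its difference was -2.13 (SE 0.47, adjusted p = 0.131), and without WT_untreated 3 and 4 it was -2.79 (adjusted p = 0.00113). Rad9a, a subunit of the DNA damage checkpoint clamp, lay between 4.78 and 5.55 in KO_antibiotic and between 6.89 and 9.44 in KO_untreated, against 4.89, 4.95, 5.58, 4.67 and 4.76 in WT_antibiotic and 5.03, 4.62, 7.49, 6.63 and 4.99 in WT_untreated. Its difference was -2.29 (SE 0.60, adjusted p = 0.338), and without WT_untreated 3 and 4 it was -3.16 (adjusted p = 0.00183). The 2 Rad9a probes disagreed: the dimmer one, ILMN_2933993, was detected on every array and had a difference of 0.19 (SE 0.31), with effects of -0.04 in KO and -0.23 in WT. By the brightest probes of both genes WT_untreated 3 and 4 were the only WT arrays above 6. Prim2, a subunit of DNA primase, fell in both genotypes, with effects of -1.68 in KO and -0.78 in WT, a difference of -0.90 (SE 0.23), or -1.15 without WT_untreated 3 and 4 (adjusted p = 0.0259).

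P4ha2, a collagen prolyl hydroxylase subunit, was a case with opposite signs, with a fall of 0.60 units in KO (adjusted p = 0.00168) and an effect of 0.28 in WT (adjusted p = 0.259), a difference of -0.89 (SE 0.18, adjusted p = 0.107). Copz1, a coat subunit of transport vesicles, and Pecr, a peroxisomal enoyl-CoA reductase, had differences of -0.76 (SE 0.18) and -0.74 (SE 0.18). Their effects in WT were 0.03 and 0.15. A second Copz1 probe, detected on 5 of 22 arrays, had a difference of -0.10 (SE 0.18). The secretoglobin Scgb2b27 (-1.32, SE 0.29, and -1.63 without WT_untreated 3 and 4, adjusted p = 0.00759), the phospholipase Pla2g5 (-0.81, SE 0.21) and Dkkl1 (-0.83, SE 0.22) complete the named genes of this direction with Cma2, described below. Outside KO_untreated, Dkkl1 was detected on 1 WT_untreated array only, so it met the filter only through KO_untreated.

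**Figure D4:**
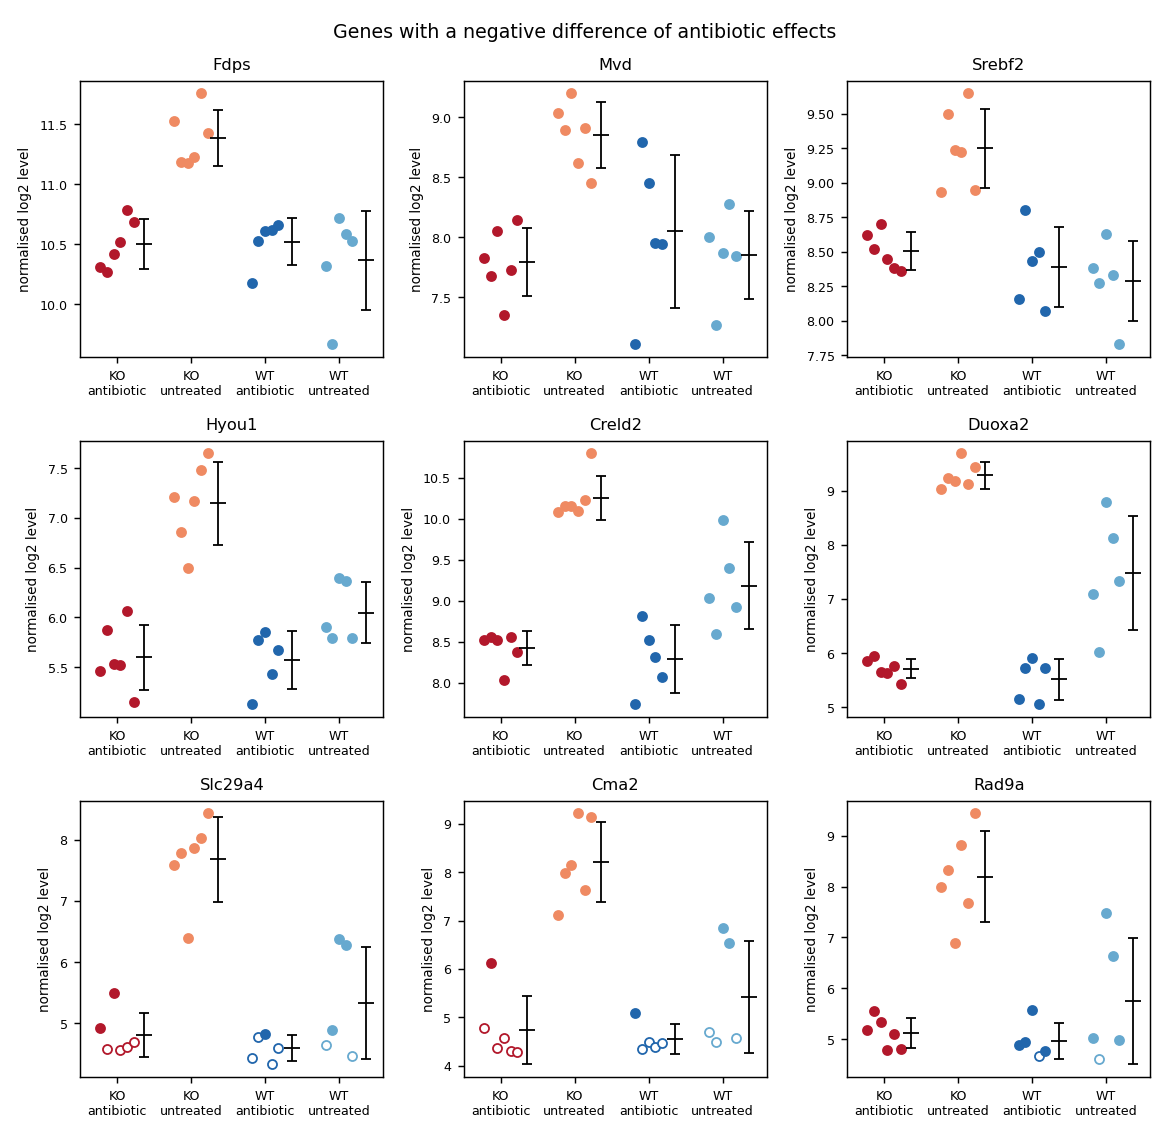
Normalised log2 level by group for 9 genes with a negative difference, from cholesterol synthesis, the unfolded protein response, the oxidases and the named genes. Each circle is 1 array, filled where detected, and black bars are the mean with its SD (n = 6 in KO groups, 5 in WT groups). KO_untreated is the highest group in each panel, and for Duoxa2, Slc29a4, Cma2 and Rad9a 2 WT_untreated arrays stand above the other WT_untreated arrays.

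On the positive side were xenobiotic enzymes, which conjugate and oxidise bile acids, steroids, plant compounds and drugs. Of 46 tested, 38 had a positive difference and 11 had an unadjusted p under 0.05 (23.9%, against 8.97% of all genes), 10 positive and 1 negative. None passed the adjusted threshold, 0 of 46, and the median was 0.35. With antibiotics 23 rose in KO and 0 fell, while 7 rose and 1 fell in WT.

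Sult1d1, a sulfotransferase, lay between 9.14 and 10.92 in KO_antibiotic (median 9.94) and between 7.43 and 9.06 in KO_untreated (median 8.41), against 10.42, 9.66, 10.60, 10.74 and 10.15 in WT_antibiotic and 10.44, 10.65, 10.46, 10.98 and 10.55 in WT_untreated. KO_untreated was below all other arrays, and the WT groups overlapped. It rose by 1.60 units in KO (adjusted p = 0.000303), its effect in WT was -0.30 (adjusted p = 0.627), and the difference was 1.91 (SE 0.41, adjusted p = 0.126). Over the 37 alternatives that difference ran from 0.95 to 2.77 and passed in none. A second Sult1d1 probe, ILMN_2955850, detected on all arrays, went against it, with an effect of -0.04 in each genotype.

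Sult1a1, a sulfotransferase of phenolic compounds, lay between 11.93 and 12.45 in KO_antibiotic and between 10.82 and 11.33 in KO_untreated, against 12.22, 12.16, 12.45, 12.44 and 12.02 in WT_antibiotic and 12.51, 12.87, 11.76, 12.39 and 12.26 in WT_untreated. It too was lowest on every KO_untreated array. The rise in KO was 0.97 units (adjusted p = 0.000146) and the difference 1.07 (SE 0.23, adjusted p = 0.126), which became 1.26 (adjusted p = 0.0115) without WT_untreated 3 and 4. Ugt2b34, a glucuronosyltransferase, had a difference of 1.15 (SE 0.38) and Mgst1, a microsomal glutathione transferase, one of 0.70 (SE 0.23), or 0.92 without those arrays (adjusted p = 0.0482). Cyp2c55, a cytochrome P450 of the mouse colon, fell in WT by 1.31 units (adjusted p = 0.00378) with an effect of -0.37 in KO, and its difference was 0.94 (SE 0.34). Cyp3a13 rose in both, by 1.58 units in KO and 0.85 units in WT.

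**Figure D5:**
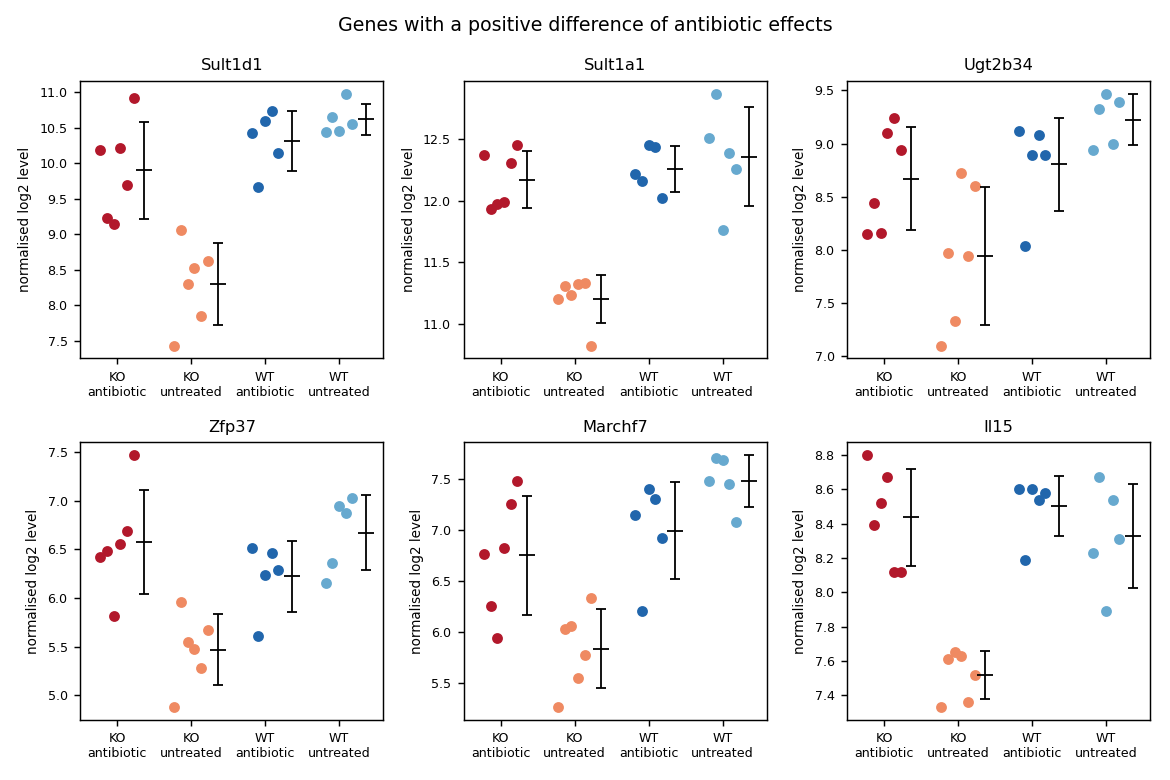
Normalised log2 level by group for 6 genes with a positive difference. Each circle is 1 array, filled where detected, and black bars are the mean with its SD (n = 6 in KO groups, 5 in WT groups). KO_untreated has the lowest mean in each panel, and for Sult1d1, Sult1a1 and Il15 all 6 KO_untreated arrays lie below the other 16.

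In all 15 named genes of the positive direction KO_untreated had the lowest mean, and in 14 WT_untreated had the highest. Separation of KO_untreated was rarer than on the negative side. In 3 of 15 every KO_untreated array was below all others, as in 0.336% of all genes. In 3 of 15 KO_antibiotic and KO_untreated did not overlap, as in 7.37% of all genes. WT_antibiotic and WT_untreated did not overlap in 3 of 15, against 0 of 15 on the negative side and 6.75% of all genes. Zfp37, a zinc finger protein, lay between 5.82 and 7.47 in KO_antibiotic and between 4.88 and 5.96 in KO_untreated, against 6.52, 5.61, 6.24, 6.46 and 6.29 in WT_antibiotic and 6.16, 6.36, 6.95, 6.87 and 7.03 in WT_untreated. Its difference was 1.55 (SE 0.34, adjusted p = 0.129). Zfp97, Zfp943 and Zbtb21, also zinc finger proteins, had differences of 1.63, 1.29 and 0.67, and Marchf7, a ubiquitin ligase, one of 1.40 (SE 0.36). Tex9, Kbtbd7, Itgb3bp, Lrif1 and Tmsb4x, the last an actin-binding peptide, lay between 0.80 and 1.43. Second probes of Lrif1, Zbtb21 and Zfp943 showed differences between -0.05 and 0.00, and that of Zfp37 one of 0.45 (SE 0.38), so these genes rest on 1 probe each.

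Il15, a cytokine that sustains intraepithelial lymphocytes, lay between 8.12 and 8.80 in KO_antibiotic and between 7.33 and 7.65 in KO_untreated, against 8.60, 8.19, 8.60, 8.54 and 8.58 in WT_antibiotic and 8.23, 8.67, 7.89, 8.54 and 8.31 in WT_untreated. KO_untreated was again below all other arrays. It rose in KO by 0.92 units (adjusted p = 0.000103), the effect in WT was 0.17 (adjusted p = 0.581), and the difference was 0.75 (SE 0.21, adjusted p = 0.398). Wdr78 and Anxa9, with differences of 0.60 and 0.75, passed the test in WT and not in KO. Wdr78 was detected on 0 KO_antibiotic and 1 KO_untreated arrays, against 0 WT_antibiotic and all 5 WT_untreated arrays, so its fall in WT was at least 1.26-fold (adjusted p = 0.00907). Anxa9 fell in WT by 0.59 units (adjusted p = 0.027). It was detected on all 5 WT_untreated arrays, against 1 WT_antibiotic, 3 KO_antibiotic and 0 KO_untreated arrays, so its effects rest partly on undetected values. Wdr78 and Anxa9 met the filter of 5 detected arrays only through WT_untreated.

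Markers of other cell types moved with these results, and in whole epithelium fewer cells of a type and less RNA per cell cannot be told apart. Of the 14 tested markers of neutrophils, eosinophils and mast cells 13 had a negative difference, 4 with an unadjusted p under 0.05 (28.6%, against 8.97% of all genes), 0 passed, and the median was -0.72. Their mean level lay between 5.07 and 5.45 in KO_antibiotic and between 5.78 and 6.46 in KO_untreated, against 5.00 to 6.01 in WT_antibiotic and 4.95 to 6.19 in WT_untreated. The 4 were all genes of mast cells. Cma2, a chymase, lay between 4.28 and 6.13 in KO_antibiotic and between 7.12 and 9.22 in KO_untreated, against 5.09, 4.35, 4.48, 4.38 and 4.46 in WT_antibiotic and 4.70, 4.49, 6.84, 6.53 and 4.57 in WT_untreated. Its difference was -2.60 (SE 0.62, adjusted p = 0.236), and without WT_untreated 3 and 4 it was -3.44 (adjusted p = 0.00228). Mcpt1, the mucosal mast cell protease, fell by 3.86 units in KO (adjusted p = 7.08e-05), had an effect of -1.02 in WT (adjusted p = 0.396) and differed by -2.84 (SE 0.86), or -3.82 without those arrays (adjusted p = 0.0441). Mcpt4, another mast cell protease, was detected on no KO_antibiotic and on 5 KO_untreated arrays, fell in KO by at least 1.99-fold (adjusted p = 0.000505) and differed by -1.21. In WT, Mcpt4 was detected on 0 antibiotic and 2 untreated arrays, and Cma2 on 1 antibiotic and 2 untreated arrays. Cma2 and Mcpt4 met the filter only through KO_untreated, and their WT effects rest largely on undetected values. Fcer1a, a chain of the IgE receptor, differed by -1.08.

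Lymphocyte and red cell lists leaned the other way. Of 9 tested B and plasma cell genes 8 had a positive difference, with a median of 0.47, and Fcrla and Cd79b, both of B cells, differed by 1.73 each (SE 0.63 and 0.64). Of 20 T cell and intraepithelial lymphocyte genes 17 were positive, with a median of 0.32, and Klrd1, a receptor of cytotoxic lymphocytes, differed by 1.45 (SE 0.59). The mean level of the B cell list lay between 6.04 and 6.87 in KO_antibiotic and between 4.68 and 6.91 in KO_untreated, against 5.65 to 6.09 in WT_antibiotic and 5.90 to 6.49 in WT_untreated. Of the 6 erythrocyte genes all were positive with a median of 0.63, and 0 had an unadjusted p under 0.05. With the 11 tested adipocyte and exocrine pancreas genes, mean levels lay between 5.90 and 6.44 in KO_antibiotic and between 6.90 and 7.30 in KO_untreated, against 5.81 to 8.65 in WT_antibiotic and 5.87 to 9.34 in WT_untreated. Pnliprp1, a pancreatic lipase relative, had a difference of -2.97 with a standard error of 1.12, and of -4.39 without WT_untreated 3 and 4 (adjusted p = 0.0385). It stood at 10.26 in WT_untreated 4 and at 9.79 in WT_antibiotic 5, against 4.66 to 7.17 on the other WT arrays. The fit giving -4.39 left out WT_untreated 4 and kept WT_antibiotic 5, so that value rests on this uneven removal. The part of these cell types in the defensin, sterol and xenobiotic differences was not tested beyond 1 fit with a leukocyte marker score as covariate, which gave 4 called probes.

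Stress genes were mixed. Of 30 tested immediate early and heat shock genes 6 had a negative and 1 a positive difference with an unadjusted p under 0.05 (23.3%, against 8.97% of all genes), and the median was -0.04. Hspa1a and Hspa1b, the inducible Hsp70 genes, are near-identical copies and are not independent. Hspa1a lay between 4.54 and 5.47 in KO_antibiotic and between 6.81 and 9.62 in KO_untreated, against 5.00, 5.39, 4.73, 4.48 and 4.53 in WT_antibiotic and 4.99, 4.60, 6.44, 6.31 and 8.56 in WT_untreated, a difference of -1.99 (SE 0.70, adjusted p = 0.512). Jund, an AP-1 subunit, rose in WT by 1.01 units (adjusted p = 0.0239) with an effect of -0.05 in KO, and differed by -1.06 (SE 0.35, adjusted p = 0.469).

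Sis, the sucrase-isomaltase of absorptive cells, rose in both genotypes. It was detected on all 6 KO_antibiotic arrays at 5.01 to 6.35 and on no KO_untreated array, against 7.12, 6.95, 8.30, 6.61 and 6.40 in WT_antibiotic and 4.38, 4.88, 4.23, 4.60 and 4.30 in WT_untreated. The rise was at least 2.19-fold in KO (adjusted p = 0.000263) and 2.60 log2 units in WT (adjusted p = 1.74e-05). All WT_antibiotic arrays were above all KO_antibiotic arrays, and the difference was -1.06 (SE 0.39, adjusted p = 0.515).

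The MHC class II list had a median difference of 0.38 over 14 genes, from median effects of -0.60 in KO and -1.27 in WT, with 1 member, H2-Oa, at an unadjusted p under 0.05 (1.08, SE 0.45). Of these 14 genes 1 fell and 1 rose in KO, and 5 fell and 0 rose in WT. Fatty acid oxidation and ketogenesis had a median difference of 0.18 over 30 genes, with 5 rising in KO and 0 in WT. Without WT_untreated 3 and 4 the MHC class II median was -0.06, so its direction rests on those arrays.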

How the data were processed

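Bead signals were measured for 45281 probes on 22 arrays. Per the file headers, the deposited scanner columns are mean bead signals, an intensity on a linear scale, each with a detection p-value. The authors' processed table is also an intensity, with the same sorted values in its 22 columns, and served only as an alternative. The labels name no scanner software.

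With limma 3.58.1 in R 4.3.3, neqc subtracted background, normalised by quantiles and took log2 after adding 16. A probe was tested if 5 or more arrays had it at a detection p-value below 0.05. The model (lmFit, eBayes) held 1 mean for each of the 4 groups, which left 18 residual degrees of freedom. Tests were two-sided, Benjamini-Hochberg adjustment ran over the 19993 tested probes, and adjusted values under 0.05 were called. A gene is its brightest tested probe. Errors are SDs over arrays for levels and standard errors for differences. The fit was tested on simulated data with known differences.

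Platform annotation, updated through the RefSeq table of GRCm38.p6, gave 34885 probes 1 symbol, 18 several and 10378 none. Genes are named by rank of p: 15 in each direction, at most 4 for each list, and Pigr, without predicted genes or clones. Outside that rule, Ang4, Cyp2c55, Cyp3a13, Defa21, Lyz1, Muc2, Pla2g2a, Reg3b, Reg3g and Saa1 were picked after their values were seen, and Cyp51, Lss, Mvk, Pmvk and Sqle complete the count of cholesterol genes. The 32 lists hold 912 genes, of which 842 had a named probe and 650 were tested. The comparison, its members and the lists were chosen with earlier results of these data known. A fold given as "at least" sets a group's mean against the lowest detected signal on arrays that did not detect the probe. The adjusted p beside such a fold is that of the measured log2 effect in limma, which uses the undetected values, and does not test the bound. Alternatives changed background, scaling, filter, weights, covariates, averaging, trend or the arrays used. The fit without WT_untreated 3 and 4 was chosen after seeing the data, by levels in the genes it is applied to, so calls gained by it are no separate support. Promoters were matched by symbol, for 66 of 86 named genes.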

Additional observations from a re-analysis of the deposited data

Results flagged for a closer look

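A test of the difference itself separated the antibiotic effects of the 2 genotypes for the unnamed probe ILMN_1254739, at -3.21 log2 units, and for 1 Defa3 probe, at -2.71.

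Checked for 88 genes or probes in each of the 4 groups, 352 cases in all, 1 array lay far from the others of its group in 35. The nominal rate of this rule is about 1 in 20. The cases share arrays and were mostly chosen by the difference, so they are not independent, and the count was not tested against that rate. WT_antibiotic 2 was such an array 8 times, with Defa3 at 4.73, Cpt2 at 11.73 and Hspa1b at 6.29 above the others, and Kbtbd7 at 6.10, Itgb3bp at 5.40, Il15 at 8.19, Casp1 at 11.15 and Ugt2b34 at 8.04 below them. WT_antibiotic 1 was so 5 times, high in Cma2 at 5.09, Hadhb at 11.47 and Fcer1a at 5.40, and low in Fdps at 10.18 and Reg4 at 5.21.

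KO_antibiotic 5 was high in Reg4 at 7.54, Neurog3 at 4.71 and Duox2 at 4.98, and low in Klrd1 at 4.48. KO_untreated 1 was high in Lbp at 6.61 and Cdc45 at 6.74, and low in Casp1 at 9.86 and Hsph1 at 8.06. WT_untreated 3 was high in Pigr at 12.50 and Cox6c at 13.24, and low in Klrd1 at 5.44 and Cd69 at 4.94.

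KO_antibiotic 2 was high in Cma2 at 6.13 and low in Mgst1 at 9.16. KO_untreated 3 was low in Creb3l1 at 6.63 and high in Sgk1 at 13.32. KO_untreated 6 was low in Sult1a1 at 10.82 and high in Creld2 at 10.80. Single cases were Prim2 low at 6.53 in KO_untreated 5, Creld2 low at 8.03 in KO_antibiotic 4, Pigr high at 12.01 in WT_antibiotic 4 and Lpl low at 7.29 in WT_antibiotic 5.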

How the results depend on the processing

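The test of the difference called 2 probes, and 0 without background correction, with median scaling over all probes, on the authors' values, without a filter, with probes averaged per gene, or without KO_antibiotic 3 and 4. In limma these 6 settings had 1791, 746, 1788, 2967, 997 and 1931 probes or genes at an unadjusted p under 0.05. Array weights gave 17, the leukocyte score as covariate 4, KO_untreated reduced to its array without a suffix 13, and leaving out WT_untreated 3 and 4, chosen after seeing the data, 61. Leaving out 1 array gave 1 to 22 for the difference, 2052 to 2588 for the effect in KO and 411 to 1314 for the effect in WT. The WT effect had 411 calls without WT_untreated 3, 480 without WT_untreated 4, 629 without WT_untreated 1, and 541, 608, 505 and 515 without WT_antibiotic 1, 2, 4 and 5. The effect in KO gave 1283 calls with median scaling over all probes and 420 with KO_untreated reduced to 1 array, which is assumed to vary like the other groups. The effect in WT gave 237 calls with that scaling, 550 without a filter, 2276 with array weights, 619 with the leukocyte score and 187 without WT_untreated 3 and 4.

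With replicate number as a block, the difference gave 2 calls, the effect in KO 2458 and the effect in WT 988. The numbers did not pair the arrays, since deviations of 31 same-numbered pairs correlated at -0.38 to 0.53, with a median of 0.00. Of 3247 values of single genes or probes under 37 alternatives, 3185 kept direction and side of the threshold, 46 newly passed, 13 no longer passed and 3 changed sign. These 3 were Pigr at 0.72, Hsph1 at 0.24 and Fcer1a at 0.20, all with KO_untreated reduced to 1 array, and the cause was not tested. The called Defa3 probe ran from -3.02 to -1.82. No block for slides could be made because slides are not named in the files.

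The number of arrays limits the precision. Defensin levels outside KO_untreated were mostly at background, where values have no order.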
